A study of Mus musculus with 3 samples.

Results

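The genes described here are the WNT ligands, their receptors and inhibitors, and the core proteins that carry the signal, in mpkDCT4a cells, an immortalised mouse kidney line labelled as distal convoluted tubule. They were chosen by name: all protein-coding genes whose symbol starts with Wnt, Fzd, Sfrp or Dkk and a number, plus 22 named genes of the same pathway. This gave 59 members of 21974 protein-coding genes and of 55487 genes in all. Total RNA depleted of ribosomal RNA was sequenced from 3 libraries of unmodified cells, all of 1 group, so no condition can be compared with another. The medium held dexamethasone (50 nM), triiodothyronine (1 nM), epidermal growth factor (10 ng/ml), insulin (5 µg/ml), transferrin (5 µg/ml), glucose (20 mM) and serum (2%), and the labels name no WNT protein or R-spondin among the additions. The data show which parts of the pathway were counted in this line, their levels, and the spread between libraries. In bulk RNA, fewer cells expressing a gene and less RNA per cell cannot be told apart.

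WNT proteins are secreted lipid-modified signals. The acyltransferase Porcupine attaches the lipid, the carrier Wntless takes the ligand to the cell surface, and a frizzled receptor with an LRP co-receptor receives it. In the β-catenin branch this stops a complex of Axin, APC and kinases from marking β-catenin for destruction, and β-catenin then acts with TCF/LEF factors on genes such as Axin2. Other branches run through ROR and VANGL proteins and steer cell shape and planar polarity. In the developing kidney, WNT signals from the ureteric epithelium, WNT9B and WNT11 among them, act in branching and nephron induction, and WNT4 in the nephron progenitors acts in the change from mesenchyme to epithelium.

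Depth was low, with totals of 436983 counts for replicate 1, 482418 for replicate 2 and 443192 for replicate 3. On the CPM scale, which sets counts to a common library size, a single count equalled 2.31 CPM, 2.07 CPM and 2.24 CPM. Genes averaging 1 CPM or more over the libraries are called detected, and the lowest of them had 2 counts in all. For a gene with 0 counts everywhere, the limit is set at 2.20 CPM, equal to 3 counts over the group and covering counting error only. The upper end of a 95% exact interval would be 2.71 CPM for such a gene. Levels of different genes are compared per exon length, on the TPM scale, except where an order by CPM is named, and intervals are 95% exact intervals of counting error. PCR copies were not told apart, so intervals may be too narrow. Of 12 markers of the distal convoluted tubule 5 were detected (41.7%), beside 50.6% of all protein-coding genes. They were the kinase gene Wnk4 (45.2 ± 11.2 CPM, SD, n = 3), Cnnm2 (19.8 CPM), Trpm6 (8.84 CPM), Kcnj10 (6.67 CPM) and Egf (2, 1 and 0 counts). The thiazide-sensitive cotransporter gene Slc12a3 had 0 counts, as had Pvalb, Calb1, Klhl3, Emx1, Sall3 and Tmem52b. The segment name is therefore that of the label, and these markers do not settle it. Of 10 fibroblast and smooth muscle markers 4 were detected (40%), Tagln, Col1a1, Acta2 and Pdgfrb. The whole list had summed levels of 20.8, 26.9 and 13.4 CPM, and Col3a1, Pdgfra, Lum and Myh11 were at 0. Their part in the WNT levels was not tested.

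Most of the receiving side of the pathway was transcribed, while the secreted inhibitors had no counts at all. In all 34 of 59 members (57.6%) and 8 of 19 ligands (42.1%) were detected, where 50.6% of all protein-coding genes were. At 10 CPM or more stood 26 members, beside 40.8% of protein-coding genes, and 23 members had 0 counts, beside 46.0%. The median level was 4.41 CPM over the members and 1.46 CPM over all protein-coding genes. Without replicate 2 the members' median was 2.31 CPM. A count in each library was found for 30 members, beside 46.6% of protein-coding genes. The members took 1035, 1120 and 1046 counts, or 0.237%, 0.232% and 0.236% of each library. Detection differed by role. It reached 8 of 19 ligands, 8 of 10 frizzleds, 3 of 3 dishevelled genes, 3 of 4 TCF/LEF genes and 0 of 8 secreted inhibitors.

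**Figure D1:**
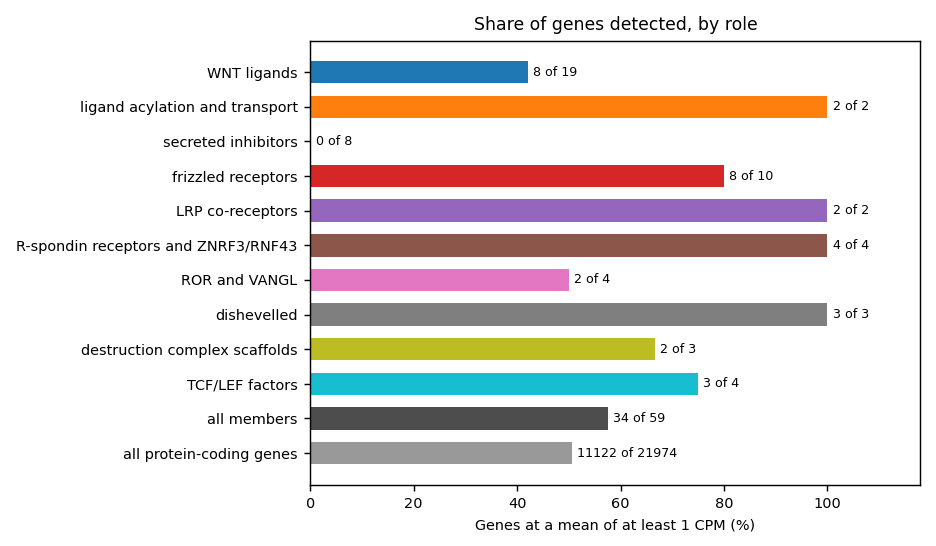
Share of genes at a mean of at least 1 CPM (x axis, %) for each role, all 59 members and all 21974 protein-coding genes, with the counts of genes at the end of each bar. The secreted inhibitors have no bar because 0 of 8 were detected. The groups of ligand acylation and transport, LRP co-receptors, dishevelled, and R-spondin receptors with Znrf3 and Rnf43 are complete.

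**Figure D2:**
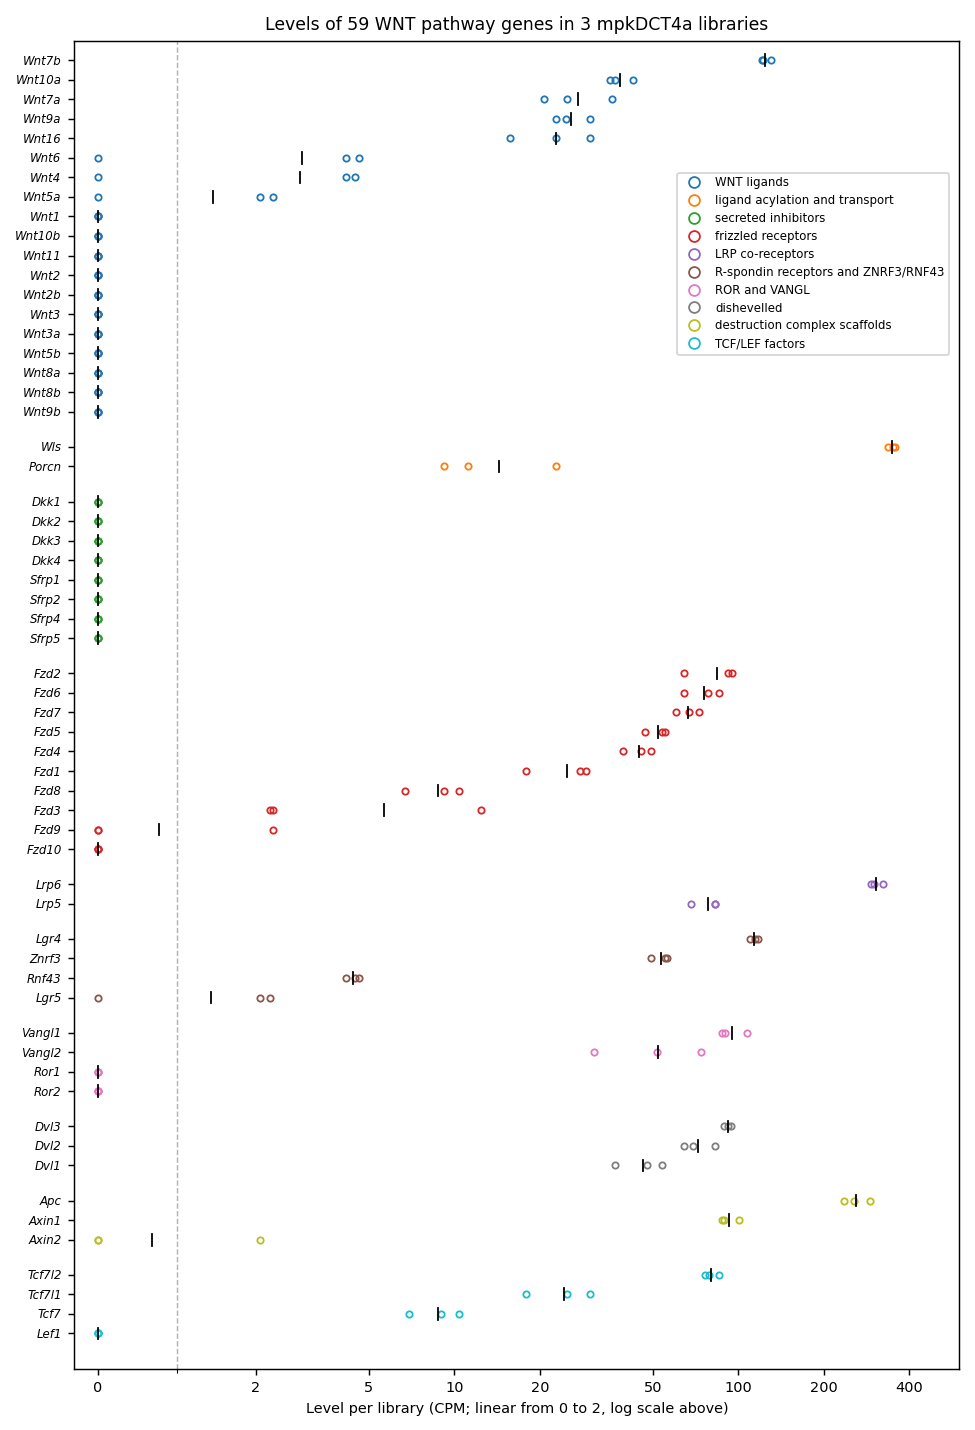
Level of each member in CPM (x axis, linear from 0 to 2 and logarithmic above) in the 3 libraries (circles) with their mean (bar), grouped by role. The dashed line marks 1 CPM, and 23 members have all libraries at 0.

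Among the ligands, Wnt7b was the highest. Wnt7b (ENSMUSG00000022382, GRCm38 chromosome 15, 85535437 to 85582473, minus strand), which acts in the lung and in the kidney collecting duct during development, had 53, 63 and 54 counts, a level of 125 ± 5.15 CPM or 93.7 ± 4.46 TPM (SD, n = 3). Wnt10a, a ligand of skin appendages and teeth, had 16, 17 and 19 counts (57.1 ± 6.09 TPM). Wnt7a, the nearest paralog of Wnt7b, had 9, 12 and 16 counts (31.6 ± 9.37 TPM). Wnt9a had 13, 11 and 11 counts (28.5 ± 3.75 TPM) and Wnt16 had 13, 11 and 7 counts (19.2 ± 5.79 TPM). These 5 ligands had counts in every library, and no other ligand did.

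The order of the upper ligands was in part resolved. Per exon length Wnt7b was 1.65 times Wnt10a (1.20 to 2.29), and Wnt10a was 1.81 times Wnt7a (1.16 to 2.83). Wnt7a was 1.11 times Wnt9a (0.680 to 1.81) and Wnt9a 1.48 times Wnt16 (0.886 to 2.48), and both intervals include no difference. Wnt7b made up 39.3 ± 2.04% of the summed TPM of all ligands (SD, n = 3) and Wnt10a 23.9 ± 2.17%. Of the 335 ligand counts, 50.7% were from Wnt7b (45.3 to 56.2, exact binomial interval). The ligands summed to 235, 237 and 242.5 TPM in the 3 libraries.

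The remaining ligands were near or at 0. Wnt6 had 2, 2 and 0 counts, Wnt4 had 0, 2 and 2, and Wnt5a had 1, 1 and 0. These counts pass the detection threshold, but each gene was at 0 in 1 library, and the Wnt6 to Wnt4 ratio of 1.91 had an interval of 0.356 to 10.3. The 11 ligands with 0 counts were Wnt1, Wnt2, Wnt2b, Wnt3, Wnt3a, Wnt5b, Wnt8a, Wnt8b, Wnt9b, Wnt10b and Wnt11. They include Wnt9b and Wnt11, the ureteric ligands named above. For these 11 the limit that 0 counts allow was between 1.79 TPM for Wnt9b and 4.64 TPM for Wnt8a, which differ because the genes differ in length.

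Several WNT genes lie side by side in the genome, and neighbours differed in level. Wnt3a (chromosome 11, 59248033 to 59290752, minus strand) and Wnt9a (59306928 to 59333552, plus strand) point away from each other with 16.2 kb between them. Wnt3a had 0 counts against 35 for Wnt9a. Set against 3 counts over the group for Wnt3a, Wnt9a was 9.68-fold higher per exon length. The exact 95% lower limit of that fold, which also covers the counting error of Wnt9a, was 7.46. On chromosome 1, Wnt6 (74771892 to 74785322, plus strand) lies 6.19 kb before Wnt10a (74791516 to 74804179, plus strand). Wnt6 had 0.0866 times the level of Wnt10a per exon length (0.0227 to 0.235), with 4 counts against 52. Without replicate 3, in which Wnt6 had 0 counts, the log2 ratio was -2.73 in place of -3.37. Both members of the other two neighbour pairs, Wnt9b with Wnt3 and Wnt10b with Wnt1, had 0 counts.

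Start regions could be compared for 5 of the 8 detected ligands, Wnt4, Wnt6, Wnt7a, Wnt9a and Wnt16, and for 10 undetected ones, and their CpG content overlapped. Wnt7b, Wnt10a and Wnt5a had no matching entry. The 250 bases before the annotated start are printed for Wnt9a and for its neighbour Wnt3a, which had no count, for Wnt16, which has the fewest CpGs among those 5, and for Axin2, the feedback gene described further on. These 4 were picked after the values were seen, from the RefSeq promoters of GRCm38.p6. Capitals mark CpG, the dinucleotide that is clustered in CpG islands. Each is written 5′ to 3′ on the strand of its gene.
Wnt9a (chr11:59306680-59306929, plus strand): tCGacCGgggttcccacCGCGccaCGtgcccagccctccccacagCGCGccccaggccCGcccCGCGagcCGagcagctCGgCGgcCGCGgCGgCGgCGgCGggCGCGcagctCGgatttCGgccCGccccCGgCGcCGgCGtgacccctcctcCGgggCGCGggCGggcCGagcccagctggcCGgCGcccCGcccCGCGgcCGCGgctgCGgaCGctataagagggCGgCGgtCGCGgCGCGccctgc
Wnt3a (chr11:59290752-59291001, minus strand): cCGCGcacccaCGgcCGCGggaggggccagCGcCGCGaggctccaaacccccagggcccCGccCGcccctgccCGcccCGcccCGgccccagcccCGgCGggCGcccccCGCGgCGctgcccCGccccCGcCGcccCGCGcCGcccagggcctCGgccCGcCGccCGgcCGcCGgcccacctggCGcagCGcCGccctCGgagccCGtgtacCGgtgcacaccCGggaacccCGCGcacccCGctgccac
Wnt16 (chr6:22287977-22288226, plus strand): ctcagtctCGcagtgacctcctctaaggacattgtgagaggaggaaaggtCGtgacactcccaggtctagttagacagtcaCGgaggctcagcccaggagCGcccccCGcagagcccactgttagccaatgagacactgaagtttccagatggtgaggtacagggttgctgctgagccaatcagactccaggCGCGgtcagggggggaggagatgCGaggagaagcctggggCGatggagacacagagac
Axin2 (chr11:108920099-108920348, plus strand): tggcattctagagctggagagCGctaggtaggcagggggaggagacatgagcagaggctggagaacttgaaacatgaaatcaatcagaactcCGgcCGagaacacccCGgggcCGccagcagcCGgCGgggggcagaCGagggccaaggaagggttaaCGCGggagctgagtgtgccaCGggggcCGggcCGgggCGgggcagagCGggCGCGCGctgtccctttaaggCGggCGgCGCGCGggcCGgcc

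The Wnt9a stretch holds 48 CpGs and that of Wnt3a holds 41, against 9 in Wnt16 and 24 in Axin2. A CpG ratio, the observed number over that expected from the C and G content, was computed over 300 bases (250 before the start to 50 after it). It was 1.115 for Wnt9a, 0.863 for Wnt3a, 0.402 for Wnt16 and 0.886 for Axin2. Promoters were found for 39 members, and 31 of them (79.5%) had a ratio of at least 0.6, as had 50.2% of 16500 protein-coding promoters. The median ratio was 0.787 in the 19 detected members with a promoter and 0.749 in the 20 others. Among the ligands with a promoter, 4 of 5 detected and 8 of 10 undetected genes had a ratio of at least 0.6.

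**Figure D3:**
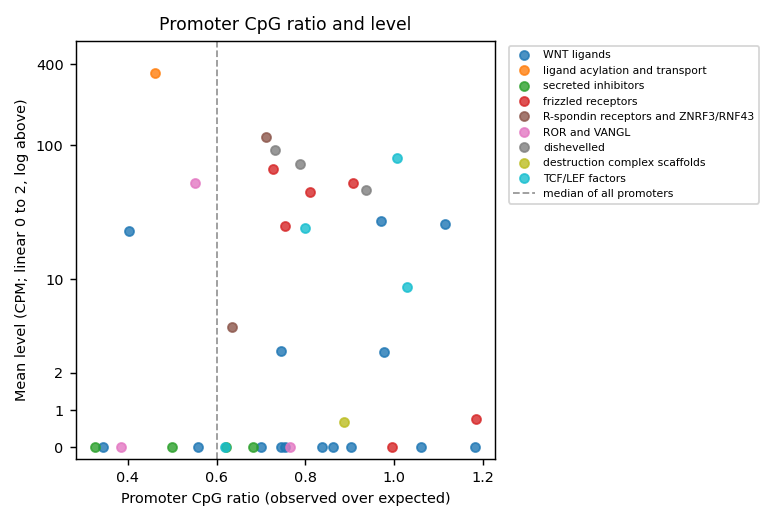
Promoter CpG ratio (x axis, observed over expected in 300 bases) against mean level (y axis, CPM, linear from 0 to 2 and logarithmic above) for 39 members, coloured by role, with the median of all protein-coding promoters as a dashed line. Members at 0 CPM and members at 10 CPM or more cover the same range of ratios, from below 0.5 to above 1.

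The genes that make ligands ready for export were both expressed, at unequal levels. Wls, which encodes Wntless (chromosome 3, 159839672 to 159938664, plus strand), was the highest member of all with 154, 162 and 156 counts, a level of 347 ± 10.2 CPM or 145 ± 3.27 TPM (SD, n = 3), and 97.9% of protein-coding genes lay below it in CPM. Porcn, which encodes Porcupine, had 4, 11 and 5 counts (17.7 ± 9.13 TPM). The replicate 2 library was the highest for Porcn. Per exon length Porcn had 0.124 times the level of Wls (0.0752 to 0.194). With the longest transcript as length the log2 ratio was -4.09 in place of -2.98.

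The secreted inhibitors had no counts. Sfrp1, Sfrp2, Sfrp4 and Sfrp5 encode frizzled-like proteins that bind WNT ligands, and Dkk1, Dkk2 and Dkk4 encode proteins that bind LRP co-receptors. Dkk3 is a relative of the Dickkopf family whose place in the pathway is less settled. All 8 had 0 counts in every library, which allows up to 2.20 CPM each. Per exon length the limits ran from 1.85 TPM for Sfrp1 to 6.17 TPM for Dkk4. Other extracellular antagonists outside the name rule were also at or near 0, with 0 counts for Wif1, Notum, Sost and Sostdc1 and 1 count for Frzb. Ndp, which encodes the frizzled ligand Norrin, had 0 counts too. Of the genes for Dickkopf receptors, Kremen1 had 16, 16 and 11 counts and Kremen2 had 0.

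Frizzled receptors were broadly expressed, with Fzd2 at the top. Fzd2 (chromosome 11, 102604396 to 102608058, plus strand) had 28, 46 and 41 counts, or 84.5 ± 17.9 TPM (SD, n = 3). Fzd6 had 37, 31 and 35 counts (58.0 ± 7.70 TPM) and Fzd7 had 29, 35 and 27 counts (54.1 ± 4.90 TPM). Fzd5 had 24, 26 and 21 counts (27.7 ± 2.13 TPM), Fzd4 had 17, 22 and 22 (24.5 ± 3.08 TPM) and Fzd1 had 12, 14 and 8 (21.8 ± 5.21 TPM). The 6 genes therefore formed an upper and a middle set, and each had counts in all 3 libraries. Fzd8 followed with 4, 5 and 3 counts (5.40 ± 1.14 TPM) and Fzd3 with 1, 6 and 1 (1.63 ± 1.70 TPM). Fzd9 had 1 count, in replicate 1, and Fzd10 had 0.

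The steps in the frizzled order were resolved in part. Per exon length Fzd2 was 1.47 times Fzd6 (1.12 to 1.93), Fzd7 was 1.96 times Fzd5 (1.42 to 2.71), Fzd1 was 4.03 times Fzd8 (2.04 to 8.55) and Fzd8 was 3.21 times Fzd3 (1.21 to 9.07). Between Fzd6 and Fzd7 (1.06, 0.795 to 1.43), Fzd5 and Fzd4 (1.13, 0.792 to 1.62), and Fzd4 and Fzd1 (1.12, 0.725 to 1.76) the interval included no difference. By sequence relationship Fzd1, Fzd2 and Fzd7 form 1 subfamily, and its members summed to 141, 181 and 158.5 TPM of 266, 295 and 276 TPM for all frizzleds. Fzd3 and Fzd6 summed to 59.7 ± 6.07 TPM, Fzd5 and Fzd8 to 33.1 ± 3.21 TPM, and Fzd4, Fzd9 and Fzd10 to 25.7 ± 1.31 TPM (SD, n = 3). Levels within subfamilies were unequal: Fzd1 had 0.258 times the level of Fzd2 (0.171 to 0.381), Fzd3 had 0.0292 times that of Fzd6 (0.0123 to 0.0598) and Fzd8 had 0.196 times that of Fzd5 (0.0966 to 0.363). Without replicate 2, which held 6 of the 8 Fzd3 counts, the log2 ratio of Fzd3 to Fzd6 was -6.27 in place of -5.02. Of the exon bases of Fzd5, 17.8% overlap the opposite-strand gene Gm38058, which had 1, 1 and 0 counts.

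**Figure D4:**
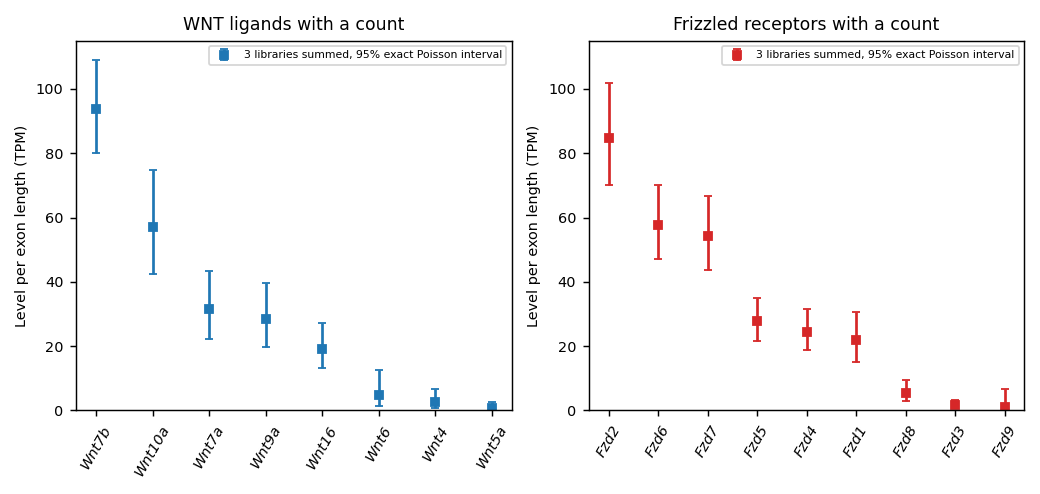
Level per exon length (y axis, TPM) of the 8 WNT ligands and 9 frizzled receptors with a count, from the counts of the 3 libraries summed, with 95% exact Poisson intervals of counting error. Wnt7b and Fzd2 lead, and intervals of the next genes overlap in sets.

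Both LRP co-receptor genes were well expressed and Lrp6 was the higher. Lrp6 (chromosome 6, 134446476 to 134566965, minus strand) had 130, 141 and 144 counts, or 305 ± 15.9 CPM and 82.1 ± 4.77 TPM (SD, n = 3), and Lrp5 had 36, 33 and 37 counts (29.5 ± 3.05 TPM). Lrp6 was 2.79 times Lrp5 per exon length (2.25 to 3.49), above it in each library.

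R-spondin receptors and the ubiquitin ligases they restrain were each represented by 1 prominent gene. ZNRF3 and RNF43 remove frizzleds from the cell surface, and LGR proteins with bound R-spondin hold them back. Lgr4 had 51, 53 and 51 counts (71.3 ± 1.82 TPM, SD, n = 3) and Znrf3 had 24, 27 and 22 (25.0 ± 1.59 TPM). Lgr5, a stem cell marker in the intestine, had 0, 1 and 1 counts, or 0.00740 times the level of Lgr4 per exon length (0.000888 to 0.0272). With the longest transcript as length the log2 ratio of Lgr5 to Lgr4 was -5.88 in place of -6.76. Rnf43 had 2, 2 and 2 counts, or 0.0989 times the level of Znrf3 (0.0352 to 0.226). Lgr6, outside the name rule, had 14, 8 and 8 counts. The R-spondin genes Rspo1, Rspo2, Rspo3 and Rspo4 had 0 counts.

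Genes of the polarity branch were present without the ROR receptors. The membrane proteins Vangl1 and Vangl2 had 39, 52 and 39 counts (48.9 ± 5.97 TPM) and 32, 15 and 23 counts (27.4 ± 10.9 TPM, SD, n = 3). Vangl2 had 0.551 times the level of Vangl1 (0.406 to 0.743). This call rests on replicate 2, the lowest library for Vangl2, and without it the log2 ratio was -0.47 in place of -0.85, with an interval that included no difference. Ror1 and Ror2, receptor kinases that bind WNT5A, had 0 counts. The related receptors Ryk (71, 74 and 61 counts, 123 TPM on average) and Ptk7 (47, 37 and 52 counts, 68.7 TPM) were expressed. So were Gpc4, which encodes a cell-surface glypican (89.0 ± 9.35 TPM), and Tspan12, which encodes a partner of FZD4 (48.1 ± 2.90 TPM). Of 17 other extracellular and receptor genes, Ryk, Ptk7, Gpc4 and Tspan12 among them, 6 were detected (35.3%, beside 50.6% of all protein-coding genes). The lists of further genes are ordered by CPM, which is not corrected for length. Of 11 further polarity genes 9 were detected, and the first by CPM were Rac1 (345 ± 25.6 CPM), Rhoa (308 ± 15.5 CPM), Celsr2 (173 ± 12.0 CPM), Scrib (129 ± 35.8 CPM) and Celsr1 (80.2 ± 8.69 CPM). The 9 detected were 81.8% of that list, beside the same 50.6%. Celsr3 and Prickle2 had 0 counts.

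All 3 dishevelled genes, which relay the signal from frizzleds, were expressed, with Dvl3 above Dvl1. Dvl3 had 40, 43 and 42 counts (52.7 ± 1.57 TPM), Dvl2 had 30, 31 and 37 (42.2 ± 5.89 TPM) and Dvl1 had 16, 23 and 24 (34.0 ± 6.68 TPM, SD, n = 3). Dvl3 was 1.55 times Dvl1 per exon length (1.13 to 2.13). Dvl3 was 1.25 times Dvl2 (0.954 to 1.65) and Dvl2 1.23 times Dvl1 (0.890 to 1.72), where no difference was included. Without replicate 1 the log2 ratio of Dvl3 to Dvl1 was 0.49 in place of 0.62 and its interval included no difference. With the longest transcript as length the log2 ratios were 1.24 for Dvl3 to Dvl1, 0.69 for Dvl3 to Dvl2 and 0.56 for Dvl2 to Dvl1, and all 3 intervals excluded no difference. Of the exon bases of Dvl2, 18.3% overlap Acadvl on the opposite strand, which had 49, 55 and 44 counts, so its counts are uncertain where strand was not used in counting, a setting the sources used here do not give.

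The scaffolds of the destruction complex were expressed except for Axin2. Axin1 had 38, 43 and 45 counts (89.0 ± 7.76 TPM) and Apc 126, 123 and 105 counts (59.4 ± 5.64 TPM, SD, n = 3). Axin2 (ENSMUSG00000000142, chromosome 11, 108920349 to 108950783, plus strand), which β-catenin switches on as a feedback brake in many tissues, had 1 count, in replicate 2. Per exon length Axin2 had 0.00552 times the level of Axin1 (0.000139 to 0.0313). Its mean of 0.690 CPM is below the detection threshold. The log2 ratio depended on the pseudocount and was -6.92 with 0.5 and -6.51 with 1. Without replicate 2 no Axin2 count was left, and the log2 ratio of -7.91 was then set by the pseudocount of 0.5. Of 18 further cytoplasmic genes 15 were detected, the first by CPM being Ctnnb1, which encodes β-catenin (652 ± 34.2 CPM), the Axin-modifying enzyme gene Tnks2 (640.2 ± 37.1 CPM), and the kinases Gsk3b (417 ± 29.5 CPM), Csnk1a1 (382 ± 28.6 CPM) and Csnk1d (259 ± 34.1 CPM). The 15 detected were 83.3% of that list, beside 50.6% of all protein-coding genes. Nkd1 and Dact1, which encode dishevelled-binding proteins, had 0 counts.

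Of the TCF/LEF factors, which bind DNA with β-catenin, Tcf7l2 led and Lef1 had no count. Tcf7l2 (chromosome 19, 55741820 to 55933654, plus strand) had 37, 38 and 34 counts (33.6 ± 1.55 TPM), Tcf7l1 had 13, 12 and 8 (22.7 ± 5.42 TPM) and Tcf7 had 3, 5 and 4 (12.3 ± 2.55 TPM, SD, n = 3). Tcf7l1 had 0.677 times the level of Tcf7l2 (0.444 to 1.01), an interval that includes no difference, and Tcf7 had 0.368 times (0.184 to 0.669). These ratios depend on the length used, since Tcf7l2 has many transcripts. With the longest transcript as length the log2 ratio was -1.42 in place of -0.55 for Tcf7l1, which then excluded no difference, and -2.54 in place of -1.39 for Tcf7. Lef1 had 0 counts. Set against 3 counts over the group for Lef1, Tcf7l2 was 36.4-fold higher per exon length, with an exact 95% lower limit of 29.1-fold. All 13 nuclear partner genes were detected (100%, beside 50.6% of all protein-coding genes). The first by CPM were the acetyltransferase genes Crebbp (398 ± 26.8 CPM) and Ep300 (233 ± 12.7 CPM) and the corepressor gene Ctbp1 (205 ± 40.7 CPM). Next were Pygo2 (93.0 ± 7.27 CPM) and Bcl9l (89.4 ± 19.8 CPM), which encode β-catenin cofactors.

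Genes known in other tissues as targets of the β-catenin branch were at very unequal levels. Of 20 such genes 13 were detected (65%, beside 50.6% of all protein-coding genes). The highest per exon length were the cyclin gene Ccnd1 (245 ± 21.2 TPM, SD, n = 3), Myc (86.5 ± 22.8 TPM), Cd44 (79.9 ± 6.81 TPM), the Notch ligand gene Jag1 (76.7 ± 5.84 TPM) and Sox9 (64.1 ± 20.6 TPM), genes that other pathways also drive. What drives these genes in this line was not tested. The 6 targets with 0 counts were Lef1, Nkd1, Notum, Sp5, Dkk1 and Ascl2, and Axin2 had 1 count. Of the 5 targets that are also members with a count, Znrf3 was the highest at 25.0 ± 1.59 TPM, then Tcf7 (12.3 ± 2.55 TPM), Rnf43 (2.48 ± 0.117 TPM), Lgr5 (0.519 ± 0.451 TPM) and Axin2 (0.465 ± 0.805 TPM).

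A TCF/LEF-type motif was looked for in the 300-base promoters, spelled CTTTGNN with A or T at each N, on either strand. It occurred in 4 of 39 members with a promoter (10.3%), namely Dkk1, Fzd7, Wnt3 and Wnt11, beside 14.7% of all 16500 protein-coding promoters. The Axin2 window held none of these letters.

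Of the 37 pairs compared (paralogs, genome neighbours, and Porcn with Wls), 10 had 0 counts in both genes. Of the other 27, 24 had the same direction in all 3 libraries and 21 had an interval that excluded no difference. With 3 libraries an exact two-sided sign-flip permutation test cannot give a p below 0.25, and this was the p of all 24. After Benjamini-Hochberg adjustment over the 27 pairs, the sign-flip p of these 24 was 0.281. This test can therefore call no pair at 0.05, whatever the size of its ratio. The intervals cover counting error in these libraries only.

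**Figure D5:**
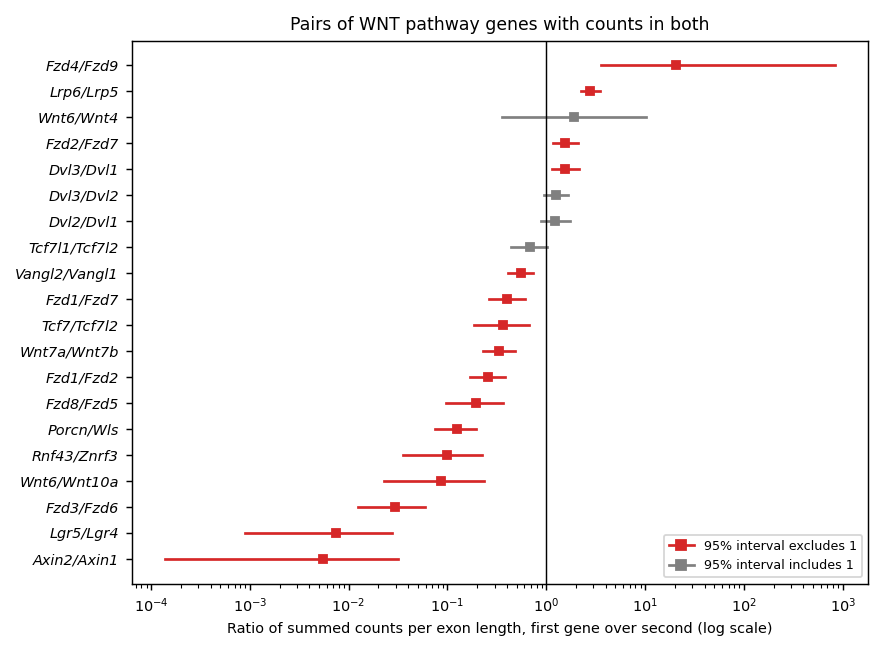
Ratio of summed counts per exon length (x axis, log scale) for the 20 pairs in which both genes had counts, first gene over second, with 95% exact intervals of counting error. Axin2 over Axin1 and Lgr5 over Lgr4 lie farthest to the left, and grey marks the 4 pairs whose interval includes 1.

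No member passed a test for a difference between the libraries. Counts were set against library size by chi-square, with Benjamini-Hochberg adjustment over 12473 genes, and 0 of 34 tested members passed, as by an exact multinomial test. Over all tested genes 0.0401% passed by either test. At an unadjusted p under 0.05, each test called 1 member, Vangl2 (exact p = 0.0164, adjusted 0.897), where 4.89% of all tested genes passed by chi-square and 4.98% by the exact test. Vangl2 was highest in replicate 1 (73.8 CPM) and lowest in replicate 2 (31.1 CPM). Of the 3 highest members by CPM, Wls varied by 2.94% between libraries, less than the 7.97% that counting error alone gives for its counts. Lrp6 varied by 5.20%, less than its 8.50%, and Apc by 10.8%, more than its 9.21%. Each of these figures rests on 3 values. The labels do not say whether the libraries came from separate cultures, so these comparisons measure only the spread between the libraries, which may be technical.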

How the data were processed

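Raw counts of reads per Ensembl gene for 3 libraries were taken as deposited. Per the submitters' processing notes the tools include STAR and HTSeq, with mm10 as genome build. Their versions, the annotation and the handling of strand and of multi-mapped reads are not given here. Libraries were made from 500 ng of total RNA cut to about 300 bp, per the labels' protocols. Each column name carries the replicate number of its library.

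Gene symbols, coordinates and exon lengths are those of GENCODE M21 (GRCm38), which matched 55227 of 55487 identifiers, and the 260 others held 313 counts. CPM used TMM-scaled library sizes (edgeR 4.0.16, R 4.3.3). TPM used the union of annotated exons. The spread beyond counting error over the 12473 genes at a mean of at least 1 CPM, edgeR's biological coefficient of variation, was 0.0393. Ratios have exact binomial (Clopper-Pearson) intervals, and a pseudocount of 0.5 entered the log2 ratios. The exact multinomial test was used for genes with up to 300 counts. Tests were tried on simulated data with known changes. Of 59 members, 4 share at least 10% of their 50-base stretches with other transcripts, Fzd5 (16.4%), Lef1, Dvl2 and Sfrp2. Promoters came from RefSeq (GRCm38.p6), 1 a gene, nearest to the gene's annotated start. Other steps ran in Python 3.11.15 (scipy 1.17.1, pandas 2.3.3, numpy 2.4.6), and matplotlib 3.10.9 drew the plots.

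The members, lists and pairs were chosen with earlier results of these data known. Named are all members, all distal tubule markers, Ctnnb1, and of each wider pathway list the 5 highest genes by CPM and those at 0. Lgr6, Frzb and the promoters printed fall outside that rule, chosen with their values in view.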

Additional observations from a re-analysis of the deposited data

How the results depend on the processing

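The count of 34 detected members was 34 with DESeq2 1.42.0 size factors or library totals, 33 at 1 TPM or more, 30 with a count in each library, 28 with at least 10 counts in all, 26 at 10 CPM or more and 35 to 36 with 1 replicate left out. The members' median of 4.41 CPM was 2.31 to 4.38 CPM with 1 replicate left out, the lowest without replicate 2. The median was the level of Rnf43 with all libraries and that of Wnt6 (2.31 CPM) without replicate 2. Fzd3, above the median at 5.66 CPM with all libraries, was below it at 2.27 CPM without replicate 2. The count of 0 members that differ between libraries was 0 under every alternative run (no filter, a mean of at least 5 counts, the exact test, both other scalings, each replicate left out). The coefficient of variation was 0.0323 to 0.0433 with 1 replicate left out. The 21 pairs whose interval excluded no difference were 24 with the longest transcript as length and 22 without length. They were 20 to 21 with 1 replicate left out. The pseudocount does not enter these intervals, so a pseudocount of 1 could not change their number. No pair changed direction, and Wnt6 to Wnt4 was at log2 0 without length. Besides the pairs named with their alternatives above, the Fzd2 to Fzd7 ratio, 1.56 per exon length (1.18 to 2.08), was not resolved without length (log2 0.34). No paired analysis was possible because all libraries belong to 1 group. At this depth members with fewer than about 10 counts are placed only as low, and the sign-flip test over 3 libraries cannot go below 0.25.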
